A study of Mus musculus with 2 samples.

Results

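The genes described here encode the nuclear subunits of the mitochondrial oxidative phosphorylation machinery. They were taken by symbol as every row of the count tables beginning with Ndufa, Ndufb, Ndufc, Ndufs or Ndufv and a number, Sdha to Sdhd, Uqcr, Cox4 to Cox8, or Atp5. The rule found 85 of 22401 rows: 38 genes of complex I, 4 of complex II, 8 of complex III, 18 of complex IV and 17 of complex V. The 13 protein-coding genes of the mitochondrial genome (mt- genes), which supply the remaining subunits, are given beside them. Complexes were assigned by gene symbol, so Ndufa4, now placed in complex IV by most sources, is counted under complex I.

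Oxidative phosphorylation passes electrons from NADH through complex I, or from succinate through complex II, to ubiquinone, on to complex III, cytochrome c and complex IV, and finally to oxygen. The proton gradient built by complexes I, III and IV drives complex V, the ATP synthase. Several complex IV subunits exist as a general form and a tissue form encoded by separate genes, and the heart is known for its switch to muscle forms as it matures.

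The data are single-cell RNA profiles of dissected mouse embryonic hearts at E11.5 (days of embryonic development), made with 10x Genomics 3′ chemistry, with 1 library per genotype. The Control genotype was Hand2fx/+R26RmTmG/wt, with 1 floxed copy of Hand2 and no Cre listed. The H2CKO genotype was Nfatc1Cre/wtHand2fx/fxR26RmTmG/wt, with Cre expressed from Nfatc1, a gene of the endocardium, and both Hand2 copies floxed. Both genotypes thus carried a floxed Hand2 allele and the mTmG reporter, which turns from Tomato to GFP in cells that have had Cre. The embryos waited about 3 hours on ice and the hearts were dissociated for 5 min before capture, and the labels do not give the number or sex of the embryos. With 1 library per genotype there is no replicate check, and no test or p-value is given. Intervals are exact 95% intervals that cover counting error only, and a difference between genotypes cannot be told apart from a difference between these 2 preparations.

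Hand2, the targeted gene, was at 227 CPM in Control (CPM: UMIs, the counted transcript molecules, for every 1000000 UMIs of the same cells) and 11.2 CPM in H2CKO endothelial-like cells. In mesenchymal-like cells it was at 179 and 47.4 CPM, while cardiomyocyte-like cells held 81.8 and 74.2 CPM. The labels do not say which part of Hand2 is floxed. GFP was at 16.4 CPM in Control and 1182 CPM in H2CKO endothelial-like cells. After filtering, 8921 Control and 11534 H2CKO cells remained, with medians of 16250 and 13432 UMIs, and 29 of their barcodes occurred in both libraries. Clustering without the members, the mt- genes, the haemoglobin genes and the genes that differ by design gave 20 clusters, and 18 of them fell into 6 classes named from markers. These held, in Control and H2CKO, 2983 and 4246 cardiomyocyte-like, 2739 and 4984 erythroid-like, 1613 and 1072 mesenchymal-like, 694 and 211 epicardial-like, 389 and 755 endothelial-like, and 80 and 113 white blood cell-like cells. The last class also contained cells with megakaryocyte transcripts, with Pf4 at 1975 and 624 CPM.

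The 85 genes took a larger share of the transcripts of cardiomyocyte-like cells than of any other class. They made up 6.51% of UMIs there in Control (6.50 to 6.52%) and 6.92% in H2CKO (6.92 to 6.93%). Mesenchymal-like cells had 2.73% and 2.90%, endothelial-like cells 2.44% and 2.80%, epicardial-like cells 2.47% and 2.77%, and white blood cell-like cells 2.96% and 3.09%. Erythroid-like cells were lowest, at 1.35% in each library, with haemoglobin transcripts at 66.0% and 68.8% of their UMIs. With haemoglobin and mt- UMIs left out of the total, erythroid-like cells stood at 4.04% and 4.43%, above the remaining non-cardiomyocyte classes. The share in cardiomyocyte-like cells was 2.63 times the median of the other classes in Control and 2.47 times in H2CKO.

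**Figure D1:**
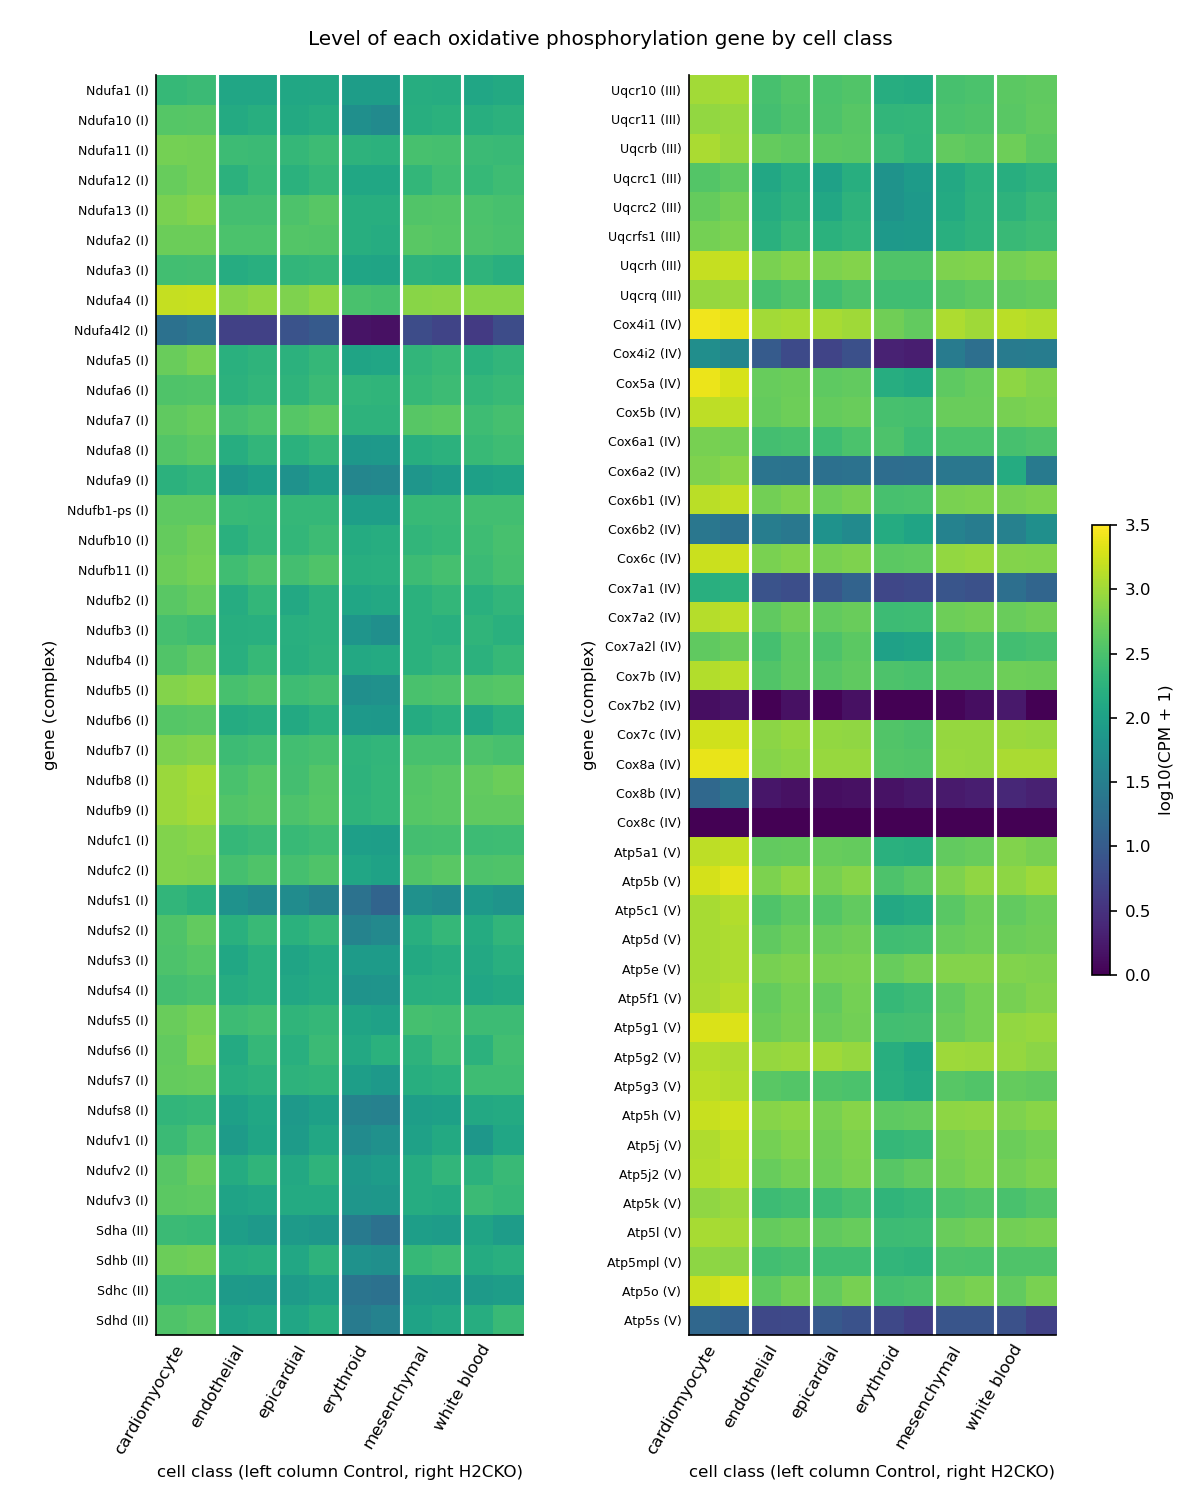
Level of each of the 85 genes, as log10(CPM + 1), in the 6 cell classes, with Control in the left and H2CKO in the right column of each class. The cardiomyocyte-like columns are the brightest for nearly every gene, and Cox6b2 is brightest in the erythroid-like columns.

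Cells of a class spread widely around these shares. When each cell was thinned to 5000 UMIs, the median share in cardiomyocyte-like cells was 6.72% in Control (quartiles 6.02 and 7.42%) and 7.06% in H2CKO (6.46 and 7.66%). The same medians were 2.78% and 3.02% in mesenchymal-like and 1.34% in both libraries in erythroid-like cells. The lowest 5% of cardiomyocyte-like cells reached up to 4.68% and 5.10%, and the 95% point of every other class was lower, at most 3.63% in Control and 3.97% in H2CKO. The thinning left out 677 and 282 cardiomyocyte-like cells with fewer UMIs.

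All 5 complexes shared the pattern. Relative to the median of the other classes, the share in cardiomyocyte-like cells of Control and H2CKO was 3.17 and 2.72 times for complex II, 2.84 and 2.62 for complex III, 2.85 and 2.61 for complex IV, 2.60 and 2.47 for complex V, and 2.36 and 2.23 for complex I. The balance between complexes moved little from class to class. Complex V took 31.0% to 32.9% of the members' UMIs in all 12 combinations of class and library, and complex I took 27.3% to 32%. Complex II, the smallest, took 2.05% and 2% in cardiomyocyte-like and 0.994% and 0.935% in erythroid-like cells.

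**Figure D2:**
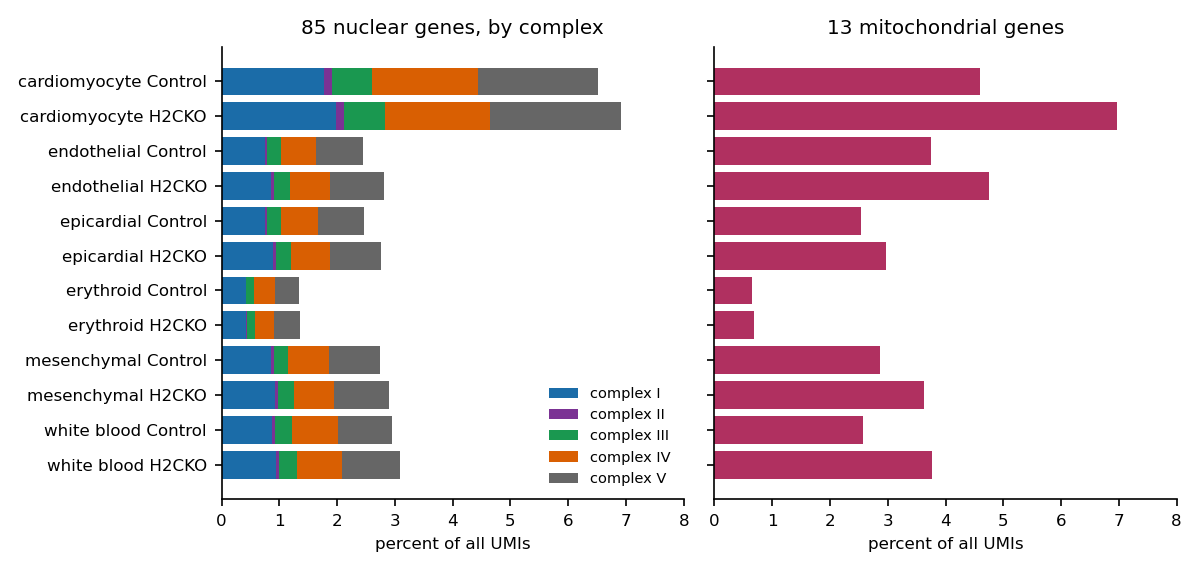
Share of all UMIs taken by the 85 nuclear genes, stacked by complex (left), and by the 13 mitochondrial genes (right), in each class and library. Cardiomyocyte-like cells reach 6.51% and 6.92% on the left, and on the right the H2CKO bar stands at 6.97% against 4.60% in Control.

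Gene by gene, each member was compared in each library with the median CPM of the other 5 classes, on a log2(CPM + 5) scale. Of the 82 members with enough counts, 67 were at least 2-fold higher in cardiomyocyte-like cells in both libraries, against 8.89% of all 8402 genes tested. The other 3, Atp5s, Cox7b2 and Cox8c, did not reach 20 CPM with 20 UMIs in any class, and Cox7a1, Cox8b and Ndufa4l2 reached it through cardiomyocyte-like cells alone, so their place among the 67 follows in part from that minimum. None was at least 2-fold lower, against 4.93% of all genes. Their median log2 ratio was 1.41 in Control and 1.29 in H2CKO, against -0.15 and -0.08 for all genes. The 67 comprised 28 of 38 genes of complex I, all 4 of complex II, all 8 of complex III, 13 of 16 of complex IV and 14 of 16 of complex V. By the library with the lower ratio, the members nearest the 2-fold line on the inner side were Ndufa8 at 1.2 and 1.02 and Ndufs5 at 1.03 and 1.23, and just outside were Ndufc2 at 1.2 and 0.96 and Ndufb11 at 1.02 and 0.97.

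That count moved with the cells kept and with how they were clustered and named. It was 33 under a stricter filter (1500 or more genes and mitochondrial UMIs up to 5%), clustered anew, which left 506 H2CKO cardiomyocyte-like cells. It was 15 when only the cells of the deposited embedding were clustered. That clustering had no erythroid-like class. Its 27 Control and 33 H2CKO white blood cell-like cells were under the minimum of 50 per library. The median of the other classes was thus taken over endothelial-, epicardial- and mesenchymal-like cells alone. In that clustering 931 of the 1149 H2CKO mesenchymal-like cells belonged to the mesenchymal-like class reported here, and the members' share of the class was 4.01% in place of 2.90%. With the classes kept as reported, the same cells of the embedding gave 63 members. Cells with mitochondrial UMIs up to 5% gave 46, and cells with at least 1500 genes gave 67. The share of all genes past 2-fold was not computed for any of these settings. Whether all genes moved alike is therefore not known.

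**Figure D3:**
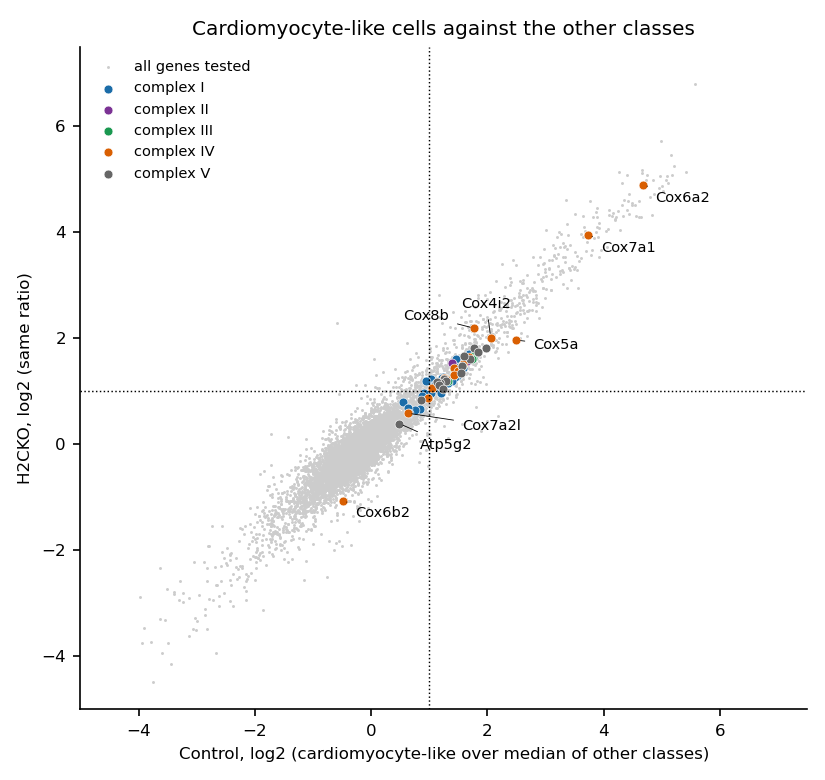
Log2 ratio of each gene's level in cardiomyocyte-like cells to the median of the other classes, in Control (x) and H2CKO (y), for all genes tested (grey) and the members by complex. Dotted lines mark 2-fold, and 67 members lie above both while Cox6b2 lies below 0 on both axes.

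The genes of the pathway outside the rule, from lists set by function, differed in how far they showed the same pattern. On the mean of the 2 libraries the median log2 ratio was 1.41 for 19 genes of the TCA cycle and pyruvate entry, of which 17 were past 2-fold, among them Idh3a, a subunit of isocitrate dehydrogenase, at 2.68 and 2.53. Electron carriers and other chain genes had 11 of 14 past 2-fold with a median of 1.31, including cytochrome c (Cycs, 2.06 and 1.88) and cytochrome c1 (Cyc1, 2.07 and 2.08). Fatty acid oxidation had 6 of 13, with a median of 1.03. The ADP/ATP, phosphate and creatine transfer list had 3 of 8, among them muscle creatine kinase (Ckm, 1.96 and 2.82) and the ADP/ATP carrier Slc25a4 at 2.24 and 2.26. Assembly factors, the chaperones that build the complexes, had 5 of 42 with a median of 0.57, and mitochondrial ribosomal proteins 5 of 77 with a median of 0.47, both counts near the 8.89% of all genes. Cytosolic ribosomal proteins, with none of 88 past 2-fold, had a median of -0.22, and all genes -0.12. Among known regulators 5 of 13 were past 2-fold: the coactivators Ppargc1a (83.0 and 65.1 CPM in cardiomyocyte-like cells, log2 ratio 3.57 and 3.46) and Ppargc1b, the nuclear receptors Esrra and Esrrg, and the mitochondrial RNA-binding protein Lrpprc. All but Lrpprc of these 5 reached the minimum in cardiomyocyte-like cells alone, as did Ckm, Ndufaf5, Pdss1 and Cpt1b among the calls of the other lists, so these calls follow in part from it. The regulators Nrf1, at -0.48 and -0.35, Gabpa at 0.20 and 0.36, and Tfam at 0.14 and 0.01 were within 2-fold.

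Because the members were high together, their RefSeq promoters (250 bases before to 50 after the start, GRCm38.p6) were searched on both strands for the letters of 4 motifs. Promoters were found for 66 of the 85 genes, 71 sequences in all. The NRF1 letters GCGCATGCG were present in 11.3% of them and in 1.75% of all 32851 promoters, the ETS/GABPA letters CCGGAAG in 22.5% and 8.86%, the YY1 letters AAGATGGCG in 9.86% and 1.40%, and the ERR letters TCAAGGTCA in 2.82% and 0.423%. At least 1 of the 4 was present in 38.0% of member promoters and 11.7% of all promoters. Members had a median GC content of 56.0% and all promoters 52.4% in the 250 upstream bases, and the part of base composition in these shares was not tested. A match is a match of letters, and no binding was measured.

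Of the 4 sequences printed here, 2 show these letters (capitals, either strand) in genes that recur in the isoform results, and 2 show the general and the muscle gene of the Cox7a pair, in neither of which any of the 4 was found. Each is the 250 bases before the start, 5′ to 3′ on the gene's strand. Cox6a1 (chr5:115348959-115349208, minus strand) holds the NRF1 letters on both strands in 1 overlapping run and the ETS letters on the opposite strand. Atp5g3 (chr2:73911327-73911576, minus strand) holds the ERR letters on the opposite strand. Cox7a2 is at chr9:79759854-79760103 (minus strand) and Cox7a1 at chr7:30183921-30184170 (plus strand).
Cox6a1: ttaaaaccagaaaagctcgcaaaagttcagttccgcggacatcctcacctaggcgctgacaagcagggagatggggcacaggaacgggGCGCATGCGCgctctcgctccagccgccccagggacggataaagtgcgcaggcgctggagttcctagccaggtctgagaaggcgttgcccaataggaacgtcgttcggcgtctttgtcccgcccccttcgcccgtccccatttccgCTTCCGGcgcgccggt
Atp5g3: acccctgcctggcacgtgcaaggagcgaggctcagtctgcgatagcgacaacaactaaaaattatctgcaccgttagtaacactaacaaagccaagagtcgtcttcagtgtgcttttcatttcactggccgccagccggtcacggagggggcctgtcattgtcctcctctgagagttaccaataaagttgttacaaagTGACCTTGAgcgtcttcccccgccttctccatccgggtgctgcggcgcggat
Cox7a2: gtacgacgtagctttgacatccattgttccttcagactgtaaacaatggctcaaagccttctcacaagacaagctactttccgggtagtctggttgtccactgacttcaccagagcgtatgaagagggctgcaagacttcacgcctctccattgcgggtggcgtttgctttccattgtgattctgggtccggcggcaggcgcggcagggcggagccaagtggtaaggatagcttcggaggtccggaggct
Cox7a1: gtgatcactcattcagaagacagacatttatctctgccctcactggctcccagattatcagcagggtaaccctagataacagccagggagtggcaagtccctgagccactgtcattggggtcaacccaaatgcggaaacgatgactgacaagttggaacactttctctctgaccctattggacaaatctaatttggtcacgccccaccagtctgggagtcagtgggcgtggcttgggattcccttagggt

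Complex I genes were present at very different levels, from 1540 CPM in Control and 1622 CPM in H2CKO cardiomyocyte-like cells for Ndufa4 to 18.9 and 23.1 CPM for Ndufa4l2. These are counts of 3′ ends per molecule and are not divided by gene length. Ndufs1, the large iron-sulfur subunit of the electron-input arm, was at 198 and 168 CPM there, at 35.7 to 77.2 CPM in the other non-erythroid classes and at 19.9 and 12.4 CPM in erythroid-like cells. Its log2 ratio in cardiomyocyte-like cells was 1.68 and 1.71. Ndufv1, the flavin-bearing subunit that takes electrons from NADH, was at 242 and 325 CPM in cardiomyocyte-like cells, with a ratio of 1.49 and 1.46. All 38 complex I genes had a ratio above 0 in both libraries. Among the lowest were the accessory subunits Ndufa7 (444 and 487 CPM, ratio 0.66 and 0.59) and Ndufa2 (518 and 521 CPM, ratio 0.63 and 0.69).

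The 4 genes of complex II, which is also an enzyme of the TCA cycle, were all past 2-fold. Sdhb, the iron-sulfur subunit, was the most abundant at 511 and 542 CPM in cardiomyocyte-like cells, against 54.2 to 253 CPM in the other classes, with a ratio of 1.82 and 1.72. Sdhd and Sdhc, the membrane anchors, were at 348 and 386 CPM and at 232 and 230 CPM, with ratios of 1.65 and 1.57 and of 1.47 and 1.37. Sdha, the flavoprotein, was at 242 and 225 CPM, with a ratio of 1.39 and 1.53.

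Complex III genes were likewise all past 2-fold, from Uqcrb (1.33 and 1.19) to Uqcrfs1 (1.75 and 1.66), the Rieske iron-sulfur protein. Uqcrfs1 was at 577 and 638 CPM in cardiomyocyte-like cells and at 78.0 to 254 CPM elsewhere. The core proteins Uqcrc1 and Uqcrc2 were at 360 and 434 CPM and at 468 and 574 CPM. Uqcrh, the hinge protein, was the most abundant at 1546 and 1619 CPM.

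Complex V genes included Atp5b, the catalytic beta subunit, at 1897 CPM in Control and 2301 CPM in H2CKO cardiomyocyte-like cells, the highest of the complex on the mean of the libraries. It stood at 604 to 957 CPM in the other non-erythroid classes and at 337 and 402 CPM in erythroid-like cells. Atp5a1, the alpha subunit, was at 1410 and 1519 CPM, with a ratio of 1.60 and 1.67. Atp5s, annotated with the family but not a subunit of the mature enzyme, was at 13.6 and 11.8 CPM, under the minimum of 20.

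The c subunit of the ATP synthase ring is encoded by 3 genes with the same mature protein, and their mixture differed between classes. In cardiomyocyte-like cells Atp5g1 gave 43.7% of c subunit UMIs in Control and 46.3% in H2CKO, Atp5g2 26.9% and 26%, and Atp5g3 29.4% and 27.7%. Mesenchymal-like cells had Atp5g2 at 52.2% and 50.1% and Atp5g1 at 26.8% and 31.3%, and epicardial-like and endothelial-like cells were close to them, with Atp5g2 at 48.6% to 54.0%. Erythroid-like cells had Atp5g1 at 46.6% and 52.3%, and white blood cell-like cells had Atp5g1 at 39.0% and 42.6% and Atp5g2 at 39.6% and 36.6%. Atp5g2 itself was at 1236 and 1163 CPM in cardiomyocyte-like cells and at 783 to 999 CPM in the other non-erythroid classes, which gave it a ratio of 0.49 and 0.39, one of the lowest of all members. Atp5g1 had a ratio of 1.98 and 1.81 and Atp5g3 of 1.76 and 1.82.

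Complex IV held both ends of the range. Cox4i1, the general form of subunit IV, was the most abundant member of all, at 2639 CPM in Control and 2418 CPM in H2CKO cardiomyocyte-like cells and at 987 to 1365 CPM in the other non-erythroid classes. Cox5a, a matrix-side subunit with no tissue form, was at 2471 and 1920 CPM, against 424 to 813 CPM in those classes, with a ratio of 2.5 and 1.97. Cox5b was at 1430 and 1461 CPM, with a ratio of 1.58 and 1.52. Cox7a2l, which joins complexes III and IV into supercomplexes, had a ratio of 0.63 and 0.59, at 437 and 501 CPM. Cox7b2 and Cox8c, known from the testis, were nearly absent: Cox8c had 1 UMI in Control and 3 in H2CKO cardiomyocyte-like cells, and Cox7b2 had 21 and 45.

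The muscle forms of 3 complex IV subunits had very different weights at this stage. Cox6a2 (ENSMUSG00000030785, GRCm38 chr7:128205435-128206387, minus strand) was at 672 CPM in Control and 762 CPM in H2CKO cardiomyocyte-like cells, beside 605 and 583 CPM of the general Cox6a1. It gave 52.6% (52.3 to 53.0%) and 56.7% (56.4 to 56.9%) of the pair's UMIs. Cox7a1 (ENSMUSG00000074218, chr7:30184144-30186078, plus strand) was at 159 and 169 CPM beside 1273 and 1436 CPM of Cox7a2, or 11.1% (10.9 to 11.3%) and 10.5% (10.4 to 10.7%). Cox8b (ENSMUSG00000025488, chr7:140898945-140900446, minus strand) was at 14.2 and 20.8 CPM beside 2452 and 2402 CPM of Cox8a, or 0.58% (0.54 to 0.62%) and 0.86% (0.82 to 0.90%). So the Cox6a pair was about evenly mixed over the class, whereas the Cox7a and Cox8 pairs were mostly of the general form. These 3 muscle genes had log2 ratios to the other classes of 4.68 and 4.90, 3.73 and 3.95, and 1.78 and 2.19, the last lowered by the added 5 CPM.

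Outside the cardiomyocyte-like class Cox6a2 stood near the level of stray cardiomyocyte transcripts. It was at 16.7 to 26.6 CPM in every other class and library except Control white blood cell-like cells, or 2.26% to 3.49% of its cardiomyocyte-like level. The 12 cardiomyocyte markers stood at a median of 2% to 3.14% of their cardiomyocyte-like level in the same cells. Of cardiomyocyte-like cells, 86.8% and 95.1% held a Cox6a2 UMI (median depth 20134 and 16973 UMIs), and of erythroid-like cells 25.8% and 20.7% did (18337 and 13230.5 UMIs). No expression of Cox6a2 beyond that background is read from those classes.

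Cox6b2 (ENSMUSG00000051811, chr7:4751792-4753094, minus strand), best known as the testis form of Cox6b, was the exception to the cardiac pattern. It was at 140 CPM in Control and 109 CPM in H2CKO erythroid-like cells, at 58.9 and 45.7 CPM in epicardial-like cells and at 23.2 and 19.2 CPM in cardiomyocyte-like cells. It was past 2-fold higher in erythroid-like cells in both libraries, the only member to be so, against 1.64% of all genes. A UMI of Cox6b2 was found in 84.6% and 70.3% of erythroid-like cells and in 28.2% and 25.1% of cardiomyocyte-like cells, whose median depths were similar or higher. Within the pair Cox6b2 gave 32.1% (31.4 to 32.7%) and 25.9% (25.4 to 26.4%) of UMIs in erythroid-like cells, 9.96% and 6.96% in epicardial-like cells and 1.64% and 1.3% in cardiomyocyte-like cells. In all 85 genes, Cox6b2 was the only one outside the nearly undetected Cox7b2 whose highest class was not the cardiomyocyte-like one. Another 39 members were at least 2-fold lower in erythroid-like cells, against 72.3% of all genes.

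**Figure D4:**
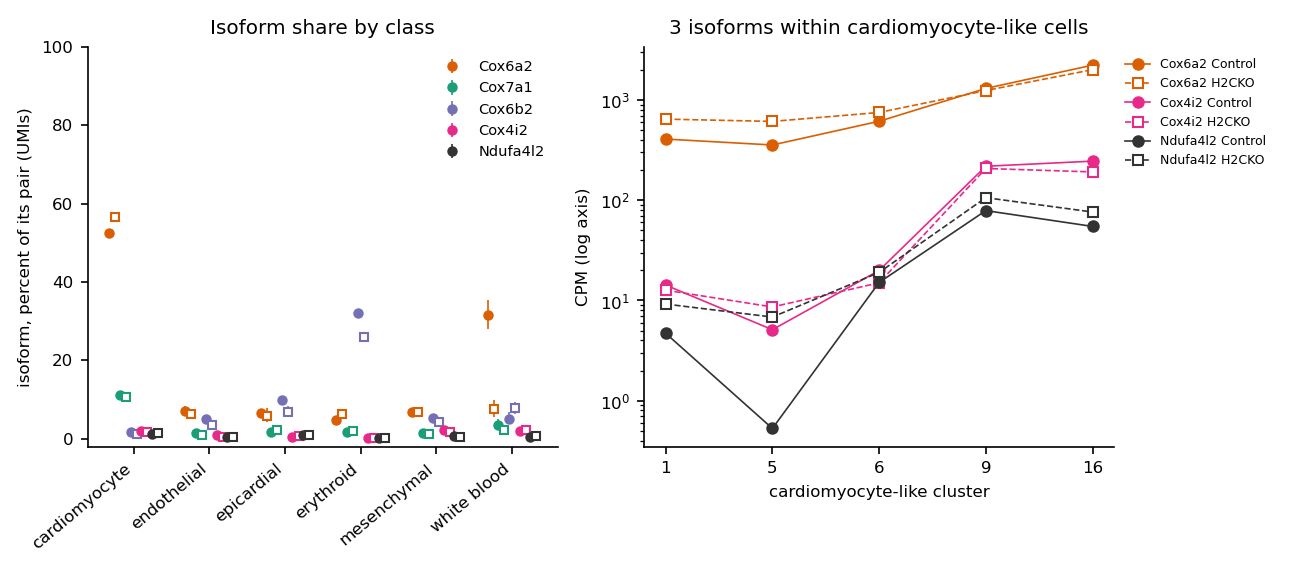
Left, share of the tissue isoform in its pair (Cox6a2 with Cox6a1, Cox7a1 with Cox7a2, Cox6b2 with Cox6b1, Cox4i2 with Cox4i1, Ndufa4l2 with Ndufa4) by class, with filled circles for Control, open squares for H2CKO and bars for 95% counting intervals. Right, CPM on a log axis in 5 cardiomyocyte-like clusters, where Cox4i2 and Ndufa4l2 are highest in clusters 9 and 16 in both libraries.

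Cox4i2 and Ndufa4l2, both known to be induced by low oxygen in several tissues, were scarce as a class average but concentrated in part of the cardiomyocyte-like cells. Cox4i2 (ENSMUSG00000009876, chr2:152754173-152765037, plus strand) was at 53.2 and 39.8 CPM in the class, 1.98% and 1.62% of its pair with Cox4i1. Ndufa4l2 (ENSMUSG00000040280, chr10:127514967-127517154, plus strand) was at 18.9 and 23.1 CPM, 1.21% and 1.41% of its pair with Ndufa4. Cluster 9, whose leading genes were Rspo3, Sema3c, Bmp4 and Isl1 beside Cox4i2 and Ndufa4l2 themselves, had Cox4i2 at 218 CPM in Control and 207 CPM in H2CKO. Cluster 16, led by Bmp2, Tbx3, Gal and Cacna2d2, had it at 245 and 192 CPM. Clusters 1 (Myh7, Myl2 and Hopx), 5 (Nppa, Nppb and Gja5) and 6 (Ckm and Acta1) had Cox4i2 at only 5.1 to 19.9 CPM.

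Ndufa4l2 was likewise highest in those 2 clusters, at 78.8 and 106 CPM in cluster 9, 54.8 and 76.3 CPM in cluster 16 and 0.53 to 19.0 CPM in the other 3. In each library Cox4i2 and Ndufa4l2 were above their levels in clusters 1, 5 and 6. How many of all genes set clusters 9 and 16 apart in this way was not counted. Cox6a2 also peaked there, at 2225 and 2006 CPM in cluster 16 and 1304 and 1242 CPM in cluster 9, against 356 to 751 CPM in clusters 1, 5 and 6, and a cluster almost wholly of Control cells (106 and 3 cells) had 1361 CPM in Control. Its share of the Cox6a pair was 41.4% and 52.0% in cluster 1, 34.0% and 50.7% in cluster 5, 46.6% and 54.7% in cluster 6, 72.0% and 71.5% in cluster 9 and 81.1% and 80.1% in cluster 16. Against the median of the other 4 clusters, 2 of 82 members were past 2-fold higher in cluster 9 in both libraries (2.58% of all 6717 genes) and 3 in cluster 16 (4.2%), namely Cox4i2, Ndufa4l2 and, in cluster 16, Cox6a2. None was past 2-fold higher in clusters 1, 5 or 6 (1.4%, 0.283% and 0.0298% of genes) or lower in clusters 9 or 16 (0.462% and 0.536%). Lower calls were 2 members in cluster 1 (0.268% of genes), 2 in cluster 5 (0.819%) and 1 in cluster 6 (0.551%), and these too were Cox4i2 and Ndufa4l2. Both genes were under 20 CPM in clusters 1, 5 and 6 and passed the minimum through clusters 9 and 16 alone, so nothing is read from the number of their calls. The members took no part in the clustering.

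The total of the members, in contrast, was similar across these clusters, from 6.16% to 6.92% of UMIs in Control and from 6.73% to 7.37% in H2CKO. The cluster of 106 Control and 3 H2CKO cells had 7.36% in Control. A cluster of shallow cells (829 Control and 230 H2CKO cells) had 6.70% and 5.15%, with haemoglobin at 8.92% and 24.9% of its UMIs. Outside cardiomyocyte-like cells, Cox4i2 was at 27.3 and 18 CPM in mesenchymal-like and 27.4 and 28.2 CPM in white blood cell-like cells, 45.2% to 71.0% of the cardiomyocyte-like level and thus above the stray transcripts. It was past 2-fold higher in each of these 2 classes than in the median of the others, where 8.41% and 7.69% of all genes were, and no member was past 2-fold lower there (0.714% and 8.3%). It was past 2-fold lower in endothelial-like and in epicardial-like cells, where 0.809% and 0.821% of all genes were, and no member was past 2-fold higher there (9.07% and 8.68%). No member was past 2-fold between the 2 endothelial-like clusters (1.49% and 4.59% of genes higher and lower) or the 2 mesenchymal-like clusters (0.59% and 1.14%).

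Between the genotypes the members differed little. In cardiomyocyte-like cells 82 members had enough counts, and their median log2 ratio of H2CKO to Control was 0.11, from -0.38 to 0.57, with none past 2-fold (0.18% of all 5567 genes were past it higher and 0.683% lower). The median was 0.19 in endothelial-like cells, the class with the largest Hand2 difference, 0.21 in epicardial-like, 0.10 in mesenchymal-like, 0.11 in white blood cell-like and 0.02 in erythroid-like cells. All genes had medians of -0.16, -0.28, -0.22, -0.24, -0.20 and -0.19 in the cardiomyocyte-, endothelial-, epicardial-, mesenchymal-, white blood cell- and erythroid-like classes. No member was past 2-fold in the endothelial-like (0.858% of genes higher, 7.55% lower), epicardial-like (0.509% and 5.1%), mesenchymal-like (0.475% and 3.57%) or erythroid-like cells (0.348% and 7.76%). In white blood cell-like cells (1.3% and 7.45%) 1 member of 79 was, Cox6a2. The classes were not made up alike in the libraries. Of endothelial-like cells 127 in Control and 486 in H2CKO were in cluster 13, where the members took 2.69% and 2.90%, and 262 and 269 in cluster 14, where they took 2.33% and 2.62%. Mesenchymal markers summed to 2146 and 454 CPM in endothelial-like cells, and neural markers to 529 and 191 CPM. Of erythroid-like cells 91 and 2047 were in cluster 2, and 812 and 109 in cluster 10. Haemoglobin took 1.24% and 5.65% of UMIs in mesenchymal-like, 1.19% and 4.95% in epicardial-like, 1.85% and 4.61% in endothelial-like and 1.57% and 2.48% in cardiomyocyte-like cells. With haemoglobin and mitochondrial UMIs left out of the total, the members' medians were 0.16 in cardiomyocyte-like, 0.25 in endothelial-like, 0.27 in epicardial-like, 0.18 in mesenchymal-like, 0.15 in white blood cell-like and 0.15 in erythroid-like cells.

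**Figure D5:**
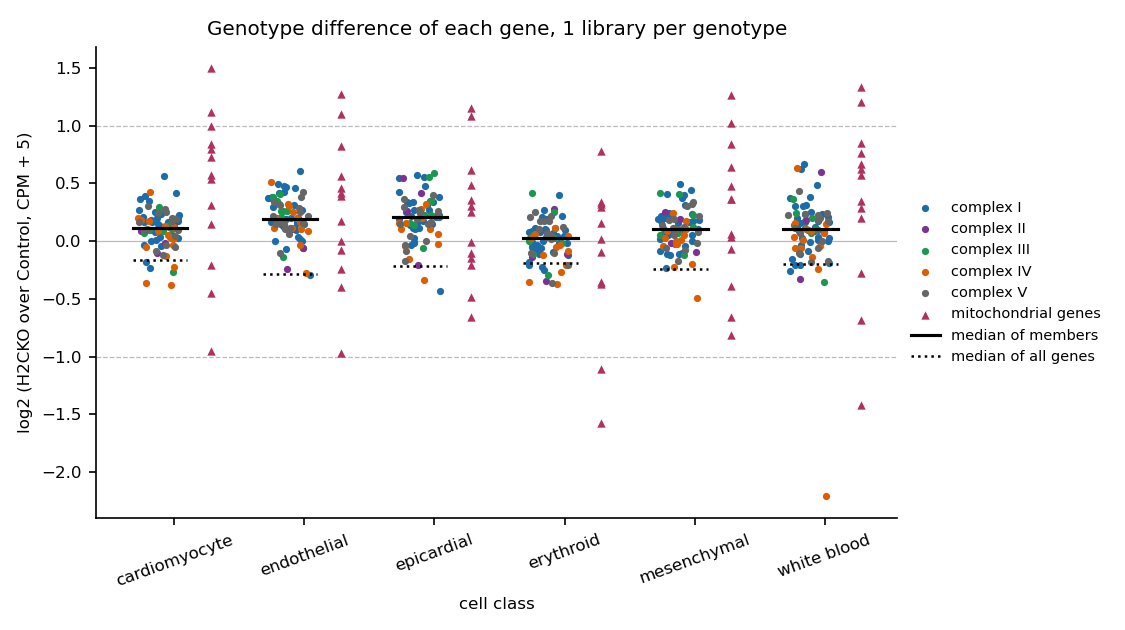
Log2 ratio of H2CKO to Control for each member tested (circles, coloured by complex) and each mitochondrial gene (triangles) in 6 classes, with the members' median (solid) and the median of all genes (dotted). The members' medians lie between 0.02 and 0.21, and the mitochondrial genes spread from -1.58 to 1.5.

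Short genes in general stood above all genes in this contrast. Across the genes tested, the log2 ratio was lower for genes that span more of the genome, with a rank correlation of -0.48 to -0.55 by class, a description across genes of the same 2 libraries. The members had a median span of 7284 bases and all genes 16373.5. Other genes no longer than the median member had medians of 0.07 in cardiomyocyte-like, 0.08 in endothelial-like, 0.13 in epicardial-like, 0.09 in mesenchymal-like, 0.10 in white blood cell-like and -0.03 in erythroid-like cells. Measured from the trend line with span, so that 0 stands for other genes of the same span, the members' medians were 0.097 in cardiomyocyte-like, 0.193 in endothelial-like, 0.14 in epicardial-like, 0.099 in mesenchymal-like, 0.063 in white blood cell-like and 0.096 in erythroid-like cells. Measured from the median of all genes they were 0.28, 0.47, 0.43, 0.34, 0.30 and 0.21 in the same order, so they stood closer to genes of their own span. There is no replicate error to set these values against.

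The largest ratios of single members were the following, in classes that all come from the same 2 libraries. Ndufs6, an accessory subunit of complex I, was the highest in cardiomyocyte-like cells, at 449 CPM in Control and 667 CPM in H2CKO (log2 0.57). It was also higher in H2CKO in endothelial-like (138 and 212 CPM), mesenchymal-like (182 and 258 CPM), epicardial-like (162 and 241 CPM), erythroid-like (130 and 173 CPM) and white blood cell-like cells (177 and 275 CPM). Ndufv2 was at 0.57 in epicardial-like and 0.44 in mesenchymal-like cells, and Uqcrc1 at 0.59 in epicardial-like and 0.42 in erythroid-like cells. Ndufv1 was at 0.67 in white blood cell-like and 0.42 in cardiomyocyte-like cells, and Cox7a2l at 0.51 in endothelial-like cells (295 and 422 CPM).

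On the low side, Ndufs1 was at -0.29 in endothelial-like cells (59.7 and 47.8 CPM), -0.43 in epicardial-like and -0.23 in mesenchymal-like cells. Cox4i2 was at -0.38 in cardiomyocyte-like cells (53.2 and 39.8 CPM) and -0.49 in mesenchymal-like cells (27.3 and 18 CPM). In the latter it passed the minimum of 20 CPM through Control alone. By cardiomyocyte-like cluster, it was at 218 and 207 CPM in cluster 9 and 245 and 192 CPM in cluster 16. It was also lower in H2CKO in clusters 1 and 6, but higher in cluster 5 and the shallow cluster. Clusters 9 and 16 held 392 and 99 of 2983 Control cells and 535 and 171 of 4246 H2CKO cells. The part of this mix in the class ratio was not tested. Cox5a was at -0.36 in cardiomyocyte-like cells, with 2471 and 1920 CPM. Uqcrb was at -0.26 in cardiomyocyte-like and -0.35 in white blood cell-like cells. Cox6b2 was at -0.27 in endothelial-like, -0.33 in epicardial-like and -0.35 in erythroid-like cells, but at 0.64 in white blood cell-like cells. Cox6a1 at -0.37 and Atp5g2 at -0.36 were the lowest in erythroid-like cells among members with enough counts. Cox8b was at 0.42 in cardiomyocyte-like cells (14.2 and 20.8 CPM), where it passed the minimum of 20 CPM through H2CKO alone. All of these lie within 2-fold.

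Cox6a2 stood at 141 CPM in Control and 26.6 CPM in H2CKO white blood cell-like cells (log2 -2.21), from 196 and 49 UMIs. Of the 196, 3 cells held 75, 64 and 28. These cells also carried 166, 100 and 64 UMIs of Tnnt2, a cardiomyocyte gene, and 280, 564 and 37 of Pf4, a platelet gene, and no UMI of Ptprc, a white blood cell gene. Without the 3 cells with most Cox6a2 in each library, the class was at 23.0 and 16.8 CPM (log2 -0.36), a range that other non-cardiac classes also had.

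By complex, the medians in cardiomyocyte-like cells were 0.15 for complex I, 0.04 for complex II, 0.10 for complex III, 0.04 for complex IV and 0.14 for complex V. In endothelial-like cells they were 0.18, 0.02, 0.26, 0.16 and 0.19. The counting intervals of the muscle isoform shares did not overlap between the libraries, with the Cox6a2 share higher in H2CKO and the Cox7a1 share lower. The Cox7a1 share was not lower in each cluster: it was 8.76% and 9.34% in cluster 1, 10.2% and 11.2% in cluster 5 and 9.89% and 9.94% in cluster 6, but 13.6% and 12.2% in cluster 9 and 20.1% and 18.7% in cluster 16 and 13.2% and 11% in the shallow cluster. Within clusters Cox6a2 was higher in H2CKO in clusters 1 (408 and 644 CPM), 5 (356 and 611 CPM) and 6 (613 and 751 CPM), and lower in clusters 9 and 16 and in the shallow cluster (575 and 494 CPM). The cluster with 3 H2CKO cells is left out of both comparisons.

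The mitochondrially encoded genes, like the nuclear ones, took their highest share in cardiomyocyte-like cells, 1.79 and 1.92 times the median of the other classes, and their lowest in erythroid-like cells. They took 4.60% of UMIs in Control and 6.97% in H2CKO cardiomyocyte-like cells, after cells above 10% had been removed. In the other classes the 2 values were 3.75% and 4.75% in endothelial-like, 2.87% and 3.63% in mesenchymal-like, 2.55% and 2.97% in epicardial-like, 2.57% and 3.77% in white blood cell-like and 0.656% and 0.687% in erythroid-like cells. Their ratio to the nuclear members was thus 0.707 and 1.01 in cardiomyocyte-like cells and 1.54 and 1.70 in endothelial-like cells, so endothelial-like cells had the larger mitochondrial part relative to nuclear transcripts. Single genes went in different directions. In cardiomyocyte-like cells mt-Nd3 was at 494 CPM in Control and 1402 CPM in H2CKO (log2 1.5) and mt-Nd2 at 2404 and 4798 CPM (1.00), whereas mt-Nd4l was at 766 and 394 CPM (-0.95). In all 6 classes mt-Nd3 was higher in H2CKO, from 0.78 to 1.5, and mt-Nd4l lower, from -0.65 to -1.58. The reading frames of mt-Nd4l and mt-Nd4, and of mt-Atp8 and mt-Atp6, overlap, so the counts of mt-Nd4l and mt-Atp8 are uncertain. The share of mitochondrial transcripts is also a usual sign of cell damage, and its part in these differences was not tested.

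The genotype difference of the members in cardiomyocyte-like cells differed between bins of that mitochondrial share, and the haemoglobin share differed between them too. Among cells with over 5 to 7.5% mitochondrial UMIs, the members took 6.59% in Control (751 cells) and 6.88% in H2CKO (2232 cells). Between 7.5 and 10% they took 6.48% (184 cells) and 7.26% (1487 cells). Between 2.5 and 5%, however, the values were 6.38% (1250 cells) and 5.73% (440 cells), and haemoglobin took 1.65% and 12.2% of those cells' UMIs. Up to 2.5% they were 7.16% (798 cells) and 5.69% (87 cells), with haemoglobin at 3.87% and 17.8%, but these were shallow cells with medians of 2406 and 2000 UMIs, so depth and mitochondrial share cannot be told apart there. With haemoglobin left out of the total, the pair between 2.5 and 5% became 6.49% and 6.53%, and the pair up to 2.5% became 7.45% and 6.92%, still lower in H2CKO. Keeping only cells of at most 5%, with haemoglobin in the total, gave a median log2 ratio of -0.12 in place of 0.11. That median was not recomputed without haemoglobin. In these cells 1 of 81 members was past 2-fold higher, Ndufa4l2, at 19.6 and 58.8 CPM, against 0.978% of all 5519 genes. It passed the minimum of 20 CPM through H2CKO alone. No member was past 2-fold lower, against 2.48% of genes.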

How the data were processed

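The deposited files, 1 pair per library, hold whole UMI counts per gene and cell barcode, not normalised, and embedding coordinates (a score without unit) for 5408 Control and 6232 H2CKO cells, per the file headers. Cell Ranger 5.0.1, Seurat 4 and GRCm38.p6 are named in the submitters' processing notes. How the authors chose the cells of the embedding is not given in the sources used here, and the coordinates served only for an alternative.

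Gene IDs were matched to symbols with a reference list of gene names for 22285 of 22401 rows, and GENCODE M21 gave the gene positions and spans. Barcodes were kept as cells from 500 detected genes upward and up to a mitochondrial share of 10% of UMIs. Scrublet (run through scanpy 1.11.5) removed 920 of 9841 Control cells at its automatic threshold. In H2CKO that threshold called none, so the top 5% of scores were removed (607 of 12141 cells). Of the barcodes, 57 occurred in both libraries. Clustering used 2000 variable genes, scaled within library, 30 principal components, 15 neighbours from each library and Leiden resolution 1 (leidenalg 0.10.2). Clusters were named from 13 marker lists, and 2 clusters stayed unnamed.

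For each class in each library the UMIs were added up and expressed as CPM (python 3.11.15, pandas 2.3.3). Genes were compared when they had at least 20 CPM and 20 UMIs, on log2(CPM + 5), and counted when past 2-fold (for cell classes, in both libraries). Shares have exact Clopper-Pearson intervals, CPM values exact Poisson intervals. Total depth was 195825720 UMIs in Control and 201477256 in H2CKO. The members, gene lists and rules were chosen with earlier results of these data known. Genes were named by rule: the isoform pairs, the c subunit genes and core subunits whatever their values, the 5 members with the highest and the 5 with the lowest cell class ratio, the most abundant of each complex, and per class the 2 highest and 2 lowest between genotypes. The members nearest the 2-fold line, Atp5s, Cox7b2, Cox8c and the regulators Nrf1, Gabpa and Tfam were named after their values were seen. Alternatives in filters, doublets, clustering, naming, scaling, pseudocount and depth were tried. Those that keep the classes and limit the cells, and that leave out the shallow cluster, 3 cells or erythroid-like cells, were chosen after seeing the data.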

Additional observations from a re-analysis of the deposited data

Results flagged for a closer look

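Cox6a2, the muscle form of a complex IV subunit, had a log2 ratio of H2CKO to Control of -2.21 in white blood cell-like cells and 0.18 in cardiomyocyte-like cells. The 2 values have opposite signs under the same contrast, and with 1 library per genotype the difference between the classes was not tested. The first value comes from 196 and 49 UMIs, 3 Control cells held most of the 196, and it was -0.36 without the 3 cells with most Cox6a2 in each library. Cardiomyocyte markers summed to 4032 CPM in Control and 1527 CPM in H2CKO white blood cell-like cells, and Cox6a2 there was at 21.0% and 3.49% of its cardiomyocyte-like level, beside medians of 7.54% and 2.77% for those markers. No difference of Cox6a2 in white blood cells is read from these values.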

How the results depend on the processing

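No paired analysis was possible because each genotype has 1 library, and for the same reason no replicate could be left out. Of the values recomputed under the alternatives, 182 stayed within the spread allowed, 55 moved and 2 changed sign, and the cause was not tested. The spread allowed was a counting interval for shares and their ratios, and a fixed fold window for counts of members. For medians between genotypes it was an interval of the median across the members, which are not replicates. The tally thus mixes unlike rules. The mean over the libraries of the cardiomyocyte-like share of the members relative to other classes, 2.55, was 2.54 with no upper mitochondrial limit, 2.11 under the stricter cell filter, 2.46 with doublets kept, 2.56 with members among the variable genes, 2.54 at Leiden resolution 0.5, 2.4 with each cell named by its own markers, 1.99 in cells of the embedding reclustered and 2.45 with the classes kept in those cells, 2.41 without haemoglobin and mitochondrial UMIs, 2.53 after thinning, 2.55 without the shallow cluster, 2.35 in cells of at most 5% mitochondrial UMIs, and 2.46 without erythroid-like cells. The 67 members past 2-fold became 33 under the stricter filter and 15 in the reclustered embedding, and the share of all genes was not computed there. In the reclustered embedding the other classes were endothelial-, epicardial- and mesenchymal-like cells alone.

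The members' median between genotypes in cardiomyocyte-like cells became -0.18 under the stricter filter and -0.12 in cells of at most 5% mitochondrial UMIs, with 1 member past 2-fold in each. Haemoglobin stayed in the total for both of these values, and neither was recomputed without it. The median in cardiomyocyte-like cells was 0.17 in the embedding, 0.16 without haemoglobin and mitochondrial UMIs and 0.28 centred on the median gene. In endothelial-like cells it was 0.084 under the stricter filter, 0.15 in the embedding and 0.47 centred. In epicardial-like cells it was 0.43 with doublets kept (1 member past 2-fold), 0.27 with own markers, 0.53 in the embedding (2 members), 0.27 without haemoglobin and mitochondrial UMIs, 0.43 centred and 0.14 with the gene-span trend taken out. In erythroid-like cells the last 3 settings gave 0.15, 0.21 and 0.096. In mesenchymal-like cells it was 0.34 in the embedding (1 member), 0.18 without haemoglobin and mitochondrial UMIs and 0.34 centred. In white blood cell-like cells it was 0.17 with doublets kept, 0.22 with own markers, 0.303 centred and 0.063 without the span trend, and thinning gave 2 members past 2-fold. Apart from the cells of at most 5% mitochondrial UMIs, the share of all genes past 2-fold was not computed under these alternatives. Nothing is read from these counts of members.

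The mean isoform share in cardiomyocyte-like cells was 52.1% for Cox6a2, 9.87% for Cox7a1 and 0.559% for Cox8b under the stricter filter, and 55.6% for Cox6a2 and 11.4% for Cox7a1 after thinning. The ratio of mitochondrial to nuclear member UMIs in those cells, 0.857 on the mean of the libraries, was 0.935 with no upper mitochondrial limit, 0.671 under the stricter filter, 0.854 with doublets kept, 0.855 with own markers, 0.933 in the embedding, 0.833 after thinning and 0.873 without the shallow cluster.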
